A study of Mus musculus with 38 samples.

Results

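The regions described here are 585 broad domains of histone H3 lactylated at lysine 18 (H3K18la) in M1 macrophages. They are peaks of the M1 H3K18la list that span at least 5000 bp and overlap an M0 H3K18la peak by at least 1 bp. The M1 list holds 16139 peaks, so the domains are 3.625% of its peaks, and they hold 17.029% of its bases (4393 of 25798 kb). The other M1 peaks were 11942 narrower peaks that also overlap an M0 peak and 3612 peaks without an M0 peak, of which 31 span 5000 bp or more. The domains were chosen by 2 measured values, peak width and M0 overlap, so both are given below as descriptions without a test.

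All samples were bone marrow-derived macrophages from C57BL/6 mice. M0 cells were unstimulated, and M1 cells had been given LPS (5 ng/ml) and IFNg (12 ng/ml) for 24 h before chromatin was digested with micrococcal nuclease and immunoprecipitated. Each mark and state had 1 ChIP-seq library, with spike-in chromatin added, so no peak has a replicate. RNA-seq covered 8 groups of 4 libraries: cells at 0, 4, 8, 16 and 24 h of LPS and IFNg, and cells that also received lactic acid (LA) 4 h after LPS and IFNg and were taken at 8, 16 and 24 h. No lactic acid dose is stated in the labels, which also do not say whether the 4 libraries of a group come from separate mice or cultures, so the p-values below measure the spread between these libraries, which may be technical. No lactic acid sample has a ChIP-seq library.

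Lactylation is a modification of histone lysines that uses a lactyl group, which cells derive from lactate, the end product of glycolysis. Acetylation of the same lysine (H3K18ac) is a mark of active promoters and enhancers, and very broad stretches of acetylated chromatin are known to lie at highly expressed genes that define a cell type. Macrophages given LPS and IFNg switch to glycolysis and release lactate, and they turn on genes of inflammation and of the interferon response.

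The libraries behind the peak lists had 21765076 (M0 H3K18la) and 21006731 (M1 H3K18la) mouse reads, with 310066 and 141688 spike-in reads, that is 70.2 and 148.3 mouse reads per spike-in read. Peaks were called for each library separately. The 0 h RNA libraries placed macrophage genes high (Cd68, a lysosomal membrane protein of macrophages, had a mean of 1242 RPKM ± 49.9, SD, n = 4). None of the marker genes of lymphocytes, neutrophils, erythroid and mast cells, stromal and endothelial cells or dendritic cells that the RNA table lists (3, 9, 1, 9 and 5 genes) started in a domain; with 2.66% of all listed genes starting in one, so few genes would give about as many, and the count says nothing of cell identity. RNA libraries had an estimated 60390000 to 103540000 reads in listed genes.

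The domains had a median width of 6472 bp, with quartiles at 5591 and 8258 bp, and the widest spanned 29911 bp. Domains of 10 kb or more numbered 78. At the limit of the rule, the 5 narrowest members spanned 5001 to 5020 bp and had fold enrichments, the authors' own value for each peak, from 4.87 to 8.73. The 5 widest peaks that missed the rule spanned 4991 to 4996 bp and had fold enrichments from 3.38 to 9.96, so the groups on the 2 sides of the limit overlap in fold enrichment. Over all domains the median fold enrichment was 7.53 (3.2 to 25.08), against 4.16 over the whole M1 list.

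**Figure D1:**
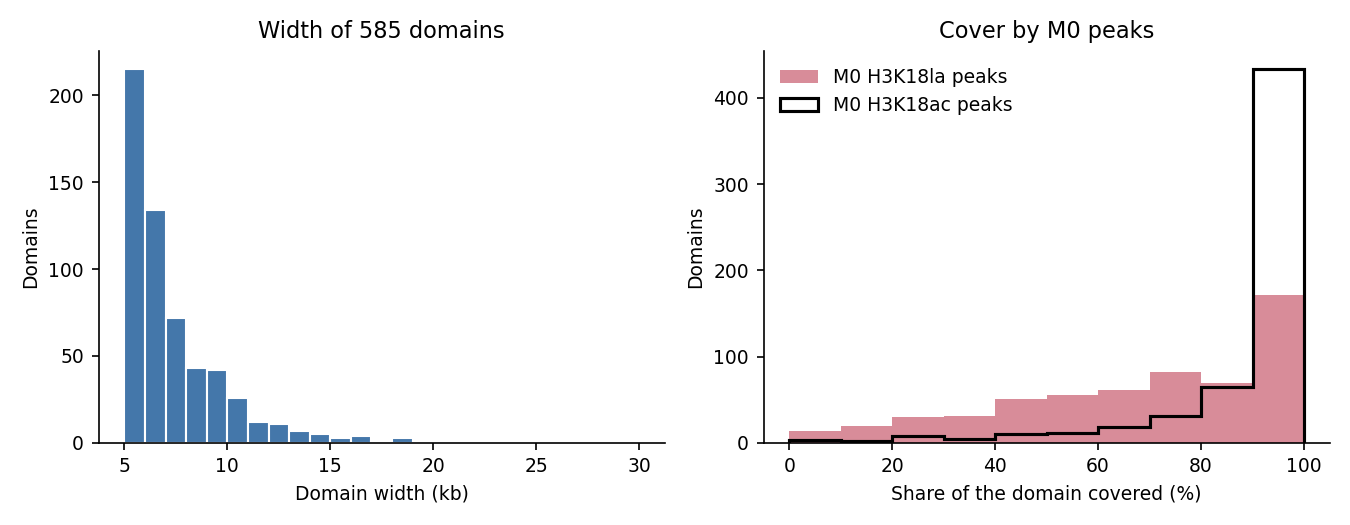
Left, number of domains by width in bins of 1 kb; right, number of domains by the percentage of their length covered by M0 H3K18la peaks (filled) and M0 H3K18ac peaks (line), in bins of 10 percentage points. Most domains lie below 10 kb, their M0 H3K18la cover spreads from 3.6% to 100%, and their M0 H3K18ac cover is concentrated at full cover (365 of 585 domains). The M0 H3K18ac list is larger (112.1 Mb) than the M0 H3K18la list (34.8 Mb).

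M0 peaks covered a median of 73.3% of a domain's length, with quartiles at 50.3% and 94.0%. Full cover was found in 83 domains. A single M0 peak lay under 423 domains, 2 under 136, 3 under 25 and 4 under 1, and where there are several the M1 peak spans places that the M0 list gives as separate peaks. An M0 peak of 5000 bp or more overlapped 290 domains (49.573%). In the other direction, 294 of the 627 M0 peaks of that width (46.89%) overlapped a domain, and 598 overlapped some M1 H3K18la peak.

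H3K18ac covered nearly every domain. In the M1 list 555 domains (94.9%) lay wholly within H3K18ac peaks, and none lacked one, whereas 83.9% of the narrower shared peaks were covered in full. The widest M1 H3K18ac peak over each domain had a median width of 19455 bp, taken over the 585 domains. A peak over several domains counts once for each of them, and 51 H3K18ac peaks each held 2 or more domains. In the M0 list 365 domains (62.4%) were covered in full by H3K18ac, against 75.3% of the narrower peaks, and 1 domain had no M0 H3K18ac peak. Across the 585 domains the share covered by M0 H3K18la and the share covered by M0 H3K18ac had a Spearman rho of 0.54, and width and fold enrichment had a rho of 0.34. These are descriptions, since the domains share libraries and their depth.

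A gene start, or a whole small gene, lay in 308 domains (52.65%), against 39.759% of the narrower shared peaks; a wider region has more room for one, and the width was not matched. A further 137 domains lay inside or over a gene without a start, 56 held 1 end of a gene whose strand is not known here, and 84 held no gene. These counts use RefSeq positions (GRCm38.p6) and include predicted genes and small RNAs. Chromosome 11 held the most domains (67 of its 1380 M1 peaks, 4.86%). Chromosome X (6 of 198, 3.03%) and chromosome 18 (6 of 395, 1.52%) held the fewest. As a share of M1 peaks, chromosomes 6 (5.21%) and 12 (5.12%) stood highest and chromosome 18 lowest, against 3.625% over the whole list. Another domain lay within 50 kb of 203 domains.

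The 12 widest domains held genes of several kinds. The widest, chr11:86575550-86605460, lies at Vmp1, which encodes an autophagy protein of the endoplasmic reticulum, and holds the whole of Mir21a. The next with a gene start in the RNA table were at A230028O05Rik, a long noncoding RNA (27362 bp on chromosome 16), Prdx1, a peroxidase that removes hydrogen peroxide (25433 bp on chromosome 4), Atf3, a stress-induced transcription factor (24189 bp on chromosome 1), Mcl1, a survival protein of the BCL2 family (21778 bp on chromosome 3), Cd180, a Toll-like receptor homologue of the cell surface (20606 bp on chromosome 13), and Ctsd, the lysosomal protease cathepsin D (17396 bp on chromosome 7).

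The other 5 of the 12 held no start of a gene in the RNA table. Of these, 2 lay within genes: Lrp1, an endocytic receptor (chr10:127587123-127605729), and Rgl1, a Ral exchange factor (chr1:152525169-152543716). The remaining 3 held no gene. The domain chr19:29482940-29502240 lay 1.4 kb from the noncoding gene A930007I19Rik, chr13:5764061-5782636 lay 78.9 kb from Klf6, and chr2:167751499-167767936 lay 61.1 kb from Cebpb, where each gene is the nearest in the RNA table by either gene end. Klf6 and Cebpb, which encode transcription factors, also started in domains of their own (13179 and 12923 bp).

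**Figure D2:**
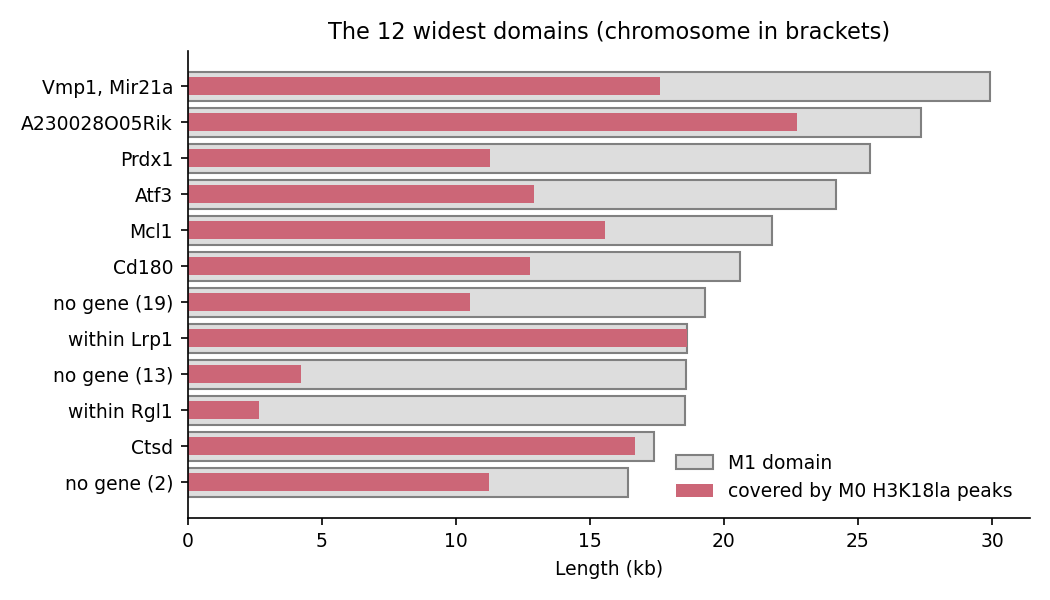
Bars give the length (kb) of the 12 widest domains (grey) and the length covered by M0 H3K18la peaks (red, drawn from the left and not at its position). Cover ranges from 14.3% at the domain within Rgl1 to 100% at the domain within Lrp1.

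The promoter sequences of these genes are shown because they are the gene starts within the widest domains. Each is the stretch of 250 bases before a listed start, 5′ to 3′ on the gene's strand, from RefSeq (GRCm38.p6). Capitals mark matches to any of 7 motifs searched on both strands, which may overlap: PU.1 (GAGGAAGT), C/EBP (TTGCNNAA), AP-1 (TGANTCA), NF-kB (GGGA and CC with 4 bases between them), IRF (GAAA repeated after 2 bases), the E-box (CACGTG) and the GC-box (GGGCGG).
A230028O05Rik, chr16:25059389-25059638, plus strand: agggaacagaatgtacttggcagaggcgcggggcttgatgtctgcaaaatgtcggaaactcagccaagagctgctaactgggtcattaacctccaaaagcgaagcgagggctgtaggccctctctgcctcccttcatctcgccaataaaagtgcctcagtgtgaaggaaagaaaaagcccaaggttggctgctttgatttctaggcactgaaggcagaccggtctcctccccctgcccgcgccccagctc
Prdx1, chr4:116685349-116685598, plus strand: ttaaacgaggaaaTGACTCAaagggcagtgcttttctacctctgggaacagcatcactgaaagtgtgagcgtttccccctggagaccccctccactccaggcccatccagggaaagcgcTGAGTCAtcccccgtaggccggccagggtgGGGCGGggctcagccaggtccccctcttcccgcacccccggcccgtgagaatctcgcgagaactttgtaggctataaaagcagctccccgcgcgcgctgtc
Atf3, chr1:191183334-191183583, minus strand: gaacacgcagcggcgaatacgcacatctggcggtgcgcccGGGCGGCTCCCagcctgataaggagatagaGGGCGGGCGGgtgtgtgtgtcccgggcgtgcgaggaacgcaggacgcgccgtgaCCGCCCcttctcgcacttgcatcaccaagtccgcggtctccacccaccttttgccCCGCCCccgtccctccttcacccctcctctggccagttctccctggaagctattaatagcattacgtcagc
Mcl1, chr3:95658471-95658720, plus strand: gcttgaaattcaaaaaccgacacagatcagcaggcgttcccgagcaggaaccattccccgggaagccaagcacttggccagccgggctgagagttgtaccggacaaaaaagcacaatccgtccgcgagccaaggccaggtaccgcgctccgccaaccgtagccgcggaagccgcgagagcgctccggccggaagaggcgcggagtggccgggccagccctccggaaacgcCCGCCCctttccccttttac
Cd180, chr13:102693297-102693546, plus strand: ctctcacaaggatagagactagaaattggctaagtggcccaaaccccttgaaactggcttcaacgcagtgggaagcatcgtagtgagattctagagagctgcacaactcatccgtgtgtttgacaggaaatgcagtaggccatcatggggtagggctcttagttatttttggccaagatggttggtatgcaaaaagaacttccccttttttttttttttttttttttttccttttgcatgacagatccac
Ctsd, chr7:142387828-142388077, minus strand: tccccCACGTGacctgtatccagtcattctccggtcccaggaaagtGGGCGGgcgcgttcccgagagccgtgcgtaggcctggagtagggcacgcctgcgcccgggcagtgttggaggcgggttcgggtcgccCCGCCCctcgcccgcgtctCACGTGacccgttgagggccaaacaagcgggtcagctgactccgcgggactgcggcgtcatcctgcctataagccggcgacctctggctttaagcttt

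Prdx1 held 2 AP-1 matches and a GC-box. Ctsd held 2 E-boxes, the letters read by the MiT/TFE factors that drive lysosomal genes, and 2 GC-boxes. Atf3 held 5 GC-boxes and an NF-kB match that overlaps the first. Mcl1 held a GC-box, and the stretches of Cd180 and A230028O05Rik held none of the 7 motifs. A match is a description of letters and not a measured binding site.

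In the 453 promoter stretches that start in a domain, the GC-box was in 52.8%, the NF-kB motif in 25.2%, C/EBP and AP-1 in 8.2% each, the E-box in 6.8%, the IRF motif in 4.4% and PU.1 in 4.2%. Over all 32851 promoter stretches searched these shares were 32.7%, 17.6%, 9.6%, 6.7%, 6.0%, 3.0% and 2.4%, in the order GC-box, NF-kB, C/EBP, AP-1, E-box, IRF and PU.1. Over the 11523 stretches of genes in the RNA table the shares, in the same order, were 57.7%, 22.4%, 7.7%, 4.6%, 8.5%, 2.9% and 2.8%. Against these the GC-box and the E-box were less frequent in domains and the other 5 more frequent, with no test made.

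Of 1228 miRNA genes that RefSeq places on the genome, 8 lie wholly in a domain and 83 wholly in some M1 H3K18la peak, and 1 more, Mir698, lies partly in a domain. The miRNA in the widest domain is miR-21a, a miRNA that is abundant in macrophages. Its mature forms are shown, with the seed (bases 2 to 8) in capitals, since no gene of the RNA table has a listed start in that domain.
mmu-miR-21a-5p: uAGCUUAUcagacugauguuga
mmu-miR-21a-3p: cAACAGCAgucgaugggcuguc
The others were Mir28a, Mir7683, Mir5625, Mir7062, Mir1934, Mir1932 and Mir8098. The 13 mature forms listed for the 8 genes have 13 different seeds. miRNAs were not measured in these libraries.

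The RNA table holds 11184 genes with their RPKM, a read count divided by the length of the gene and the size of the library, and 298 of them (2.66%) started in a domain. Of these, 287 were placed by a listed start and 11 by both gene ends. In all, 270 domains held such a start. The table consists almost only of genes that passed the authors' own test of change, so every share below is a share of that list and not of all mouse genes. A further 54 listed genes have 1 end in a domain and no listed start; Spi1, which encodes the macrophage lineage factor PU.1, Csf1r, the receptor for the growth factor CSF1, Actb, which encodes beta-actin, and Nos2, the inducible nitric oxide synthase, are among them. Il1b and Tnf have a listed start that lies in no domain, and Arg1 has no end in one.

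Genes that start in domains were expressed at high levels before stimulation. Their median was 19.13 RPKM at 0 h (18.18 to 20.12 over the 4 libraries), against 5.12 for all listed genes and 7.31 for genes that start in narrower shared peaks. The median domain gene stood at the 81.0th percentile of listed genes at 0 h, and 99 of the 298 (33.2%) were in the top 10%. In stimulated cells the median was 40.42 RPKM (4 h), 32.6 (8 h), 26.36 (16 h) and 26.21 (24 h), while that of all listed genes stayed between 4.73 and 5.12 in these groups. With lactic acid it was 36.0 (8 h), 30.86 (16 h) and 26.88 (24 h). These are RPKM as deposited. Gene by gene, the median log2 fold change of tested domain genes at 4 h was 0.48, and it depends on the scaling described below.

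Among the genes of the widest domains, Ctsd had the highest RPKM. Its libraries read 5543, 5346, 5256 and 5851 RPKM at 0 h, 3427, 3647, 3592 and 3587 at 4 h, and 8580, 8730, 8271 and 9973 at 24 h. All 4 libraries at 4 h lay below and all 4 at 24 h lay above those at 0 h. The log2 fold change of Ctsd was -0.63 (SE 0.07) at 4 h and 0.69 (SE 0.07) at 24 h, with limma adjusted p-values of 7.2e-10 and 1.6e-10.

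Prdx1 (ENSMUSG00000028691) was higher at 24 h than at 0 h, and its highest mean among the groups without lactic acid was that at 16 h (3900 RPKM ± 330, SD, n = 4). Its libraries read 1033, 867.9, 656.3 and 992.8 RPKM at 0 h, 1230, 1267, 1216 and 1237 at 4 h, and 3159, 2985, 2594 and 4035 at 24 h, so the 3 groups do not overlap. The log2 fold change was 1.85 (SE 0.11) at 24 h (limma adjusted p = 5.2e-16) and 0.50 (SE 0.11) at 4 h, a difference whose sign turns when each library is scaled to its reads in listed genes (-0.03).

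Atf3 (ENSMUSG00000026628) had its highest mean without lactic acid at 4 h (510 RPKM ± 23, SD, n = 4), and 24 h with lactic acid gave a like mean (512 ± 36). It read 77.36, 83.58, 84.62 and 83.97 RPKM at 0 h, 483, 538.2, 511.7 and 508.5 at 4 h, and 239.2, 161.9, 178.8 and 236.8 at 24 h. Every library at 4 h and 24 h lay above those at 0 h, with log2 fold changes of 2.62 (SE 0.10) and 1.28 (SE 0.10).

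Mcl1 (ENSMUSG00000038612) had means of 173 RPKM ± 11 (SD, n = 4) at 0 h, 278 ± 14 at 4 h and 339 ± 27 at 24 h. Its log2 fold change over the whole 24 h was 0.96 (SE 0.06, limma adjusted p = 3.5e-16). Cd180 (ENSMUSG00000021624) read 48.8 ± 1.3 at 0 h and 43.0 ± 8.1 at 24 h, where its libraries ran from 33.23 to 51.59 and overlapped those at 0 h (limma adjusted p = 0.072). A230028O05Rik (ENSMUSG00000096960) was low throughout, with 0.665 ± 0.10 at 0 h and 1.64 ± 0.27 at 24 h.

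**Figure D3:**
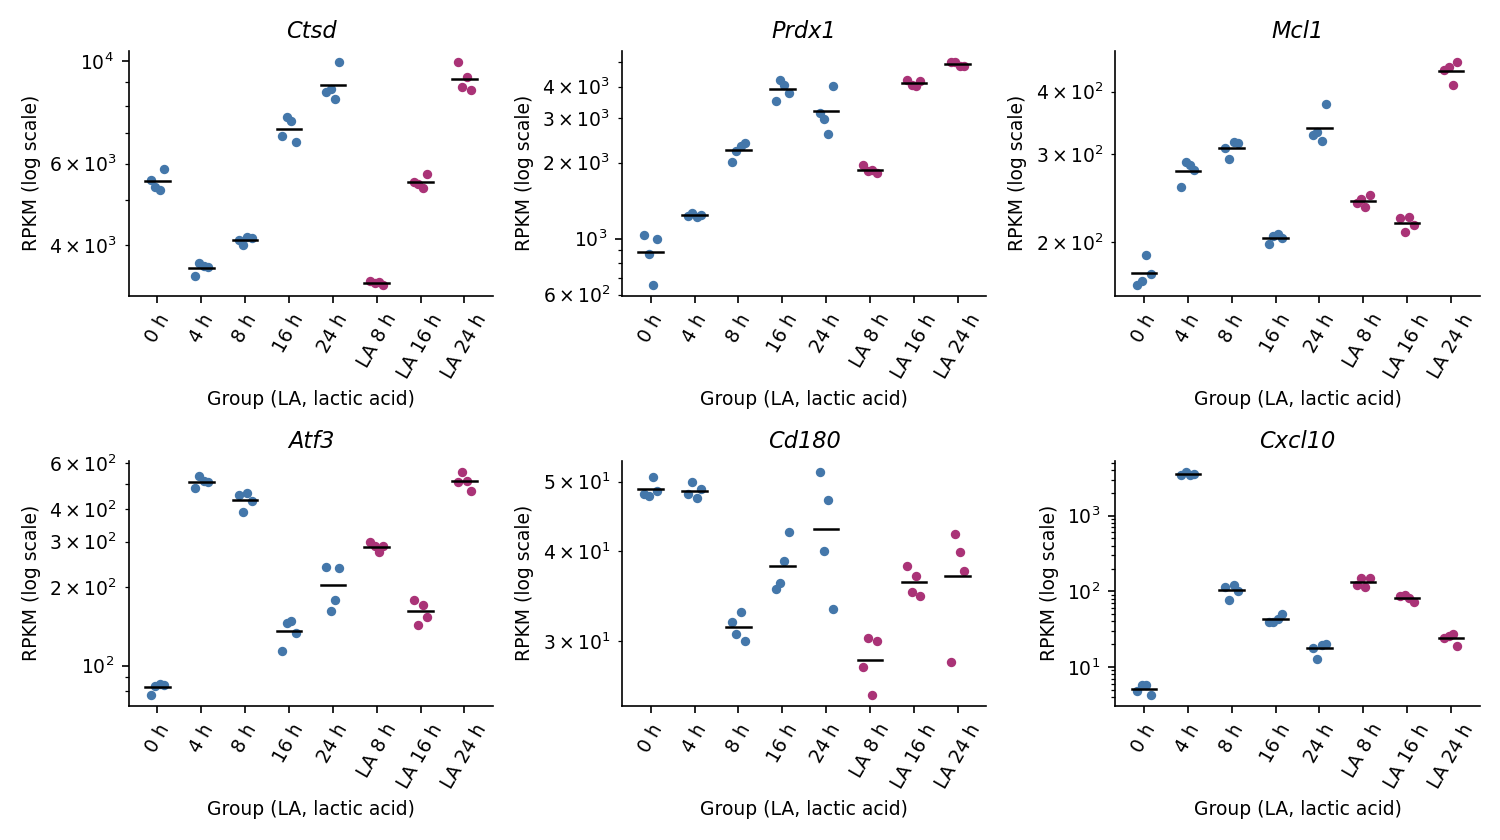
RPKM (log scale) of Ctsd, Prdx1, Mcl1, Atf3, Cd180 and Cxcl10 in each of the 4 libraries (points) of 8 groups, with the group mean (line); purple marks lactic acid (LA). Cxcl10 peaks at 4 h (3406 to 3803 RPKM), Prdx1 and Ctsd are highest late, and Cd180 libraries at 24 h spread from 33.23 to 51.59.

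The first question for the RNA was which domain genes differ between stimulated and unstimulated cells, at 4 h, when the response is early, and at 24 h, the time of the M1 ChIP-seq. Both comparisons use the same 0 h libraries. Tests were made with limma on log2(RPKM + 1) over 9942 genes, which include 293 of the 298 domain genes, and a gene is called at a Benjamini-Hochberg adjusted p below 0.05. Fold changes on this scale understate the change of low genes.

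At 4 h, 181 of 293 domain genes (61.8%) were called higher and 85 (29.0%) lower, against 42.5% and 42.7% of all tested genes. The median log2 fold change of domain genes was 0.48 and that of all tested genes -0.002. For the 46 tested genes that start in M1 peaks without an M0 peak, 89.1% were called higher and 2.17% lower. For genes of narrower shared peaks the shares were 45.7% and 39.4%. At least 2-fold higher were 109 domain genes and 40 were at least 2-fold lower, against 13.8% and 11.5% of all tested genes.

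At 24 h, 185 domain genes (63.1%) were called higher and 59 (20.1%) lower, against 39.9% and 37.3% of all tested genes. The medians were 0.35 and 0.016. Genes of M1 peaks without an M0 peak had 76.1% called higher and 4.35% lower, and genes of narrower shared peaks 40.8% and 35.8%. A larger share of higher calls is thus not particular to the domains. Past 2-fold, 60 domain genes were higher and 5 lower (6.27% and 5.37% of all tested genes). Expression bears on these shares: where the mean log2 level was 3 or more, 67.2% of 244 domain genes and 54.4% of all 4629 such genes were called higher at 24 h, and 18.4% and 25% lower. For 4 h the shares were 62.7% and 56.2% higher, and 27.5% and 29.6% lower.

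The split between higher and lower depends on the scaling. Reads in listed genes, relative to the effective size behind the authors' RPKM, were 0.7454 to 0.7558 in the 0 h libraries and 1.0576 to 1.1019 in the 4 h libraries. With every library rescaled to the sum of those reads, the all-gene median log2 fold change moves to -0.44 at 4 h and -0.38 at 24 h. Then 134 domain genes are called higher and 132 lower at 4 h, and 97 and 130 at 24 h. The median of domain genes stood above that of all genes by 0.48 at 4 h and 0.33 at 24 h as deposited, and by 0.41 and 0.28 after this scaling.

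**Figure D4:**
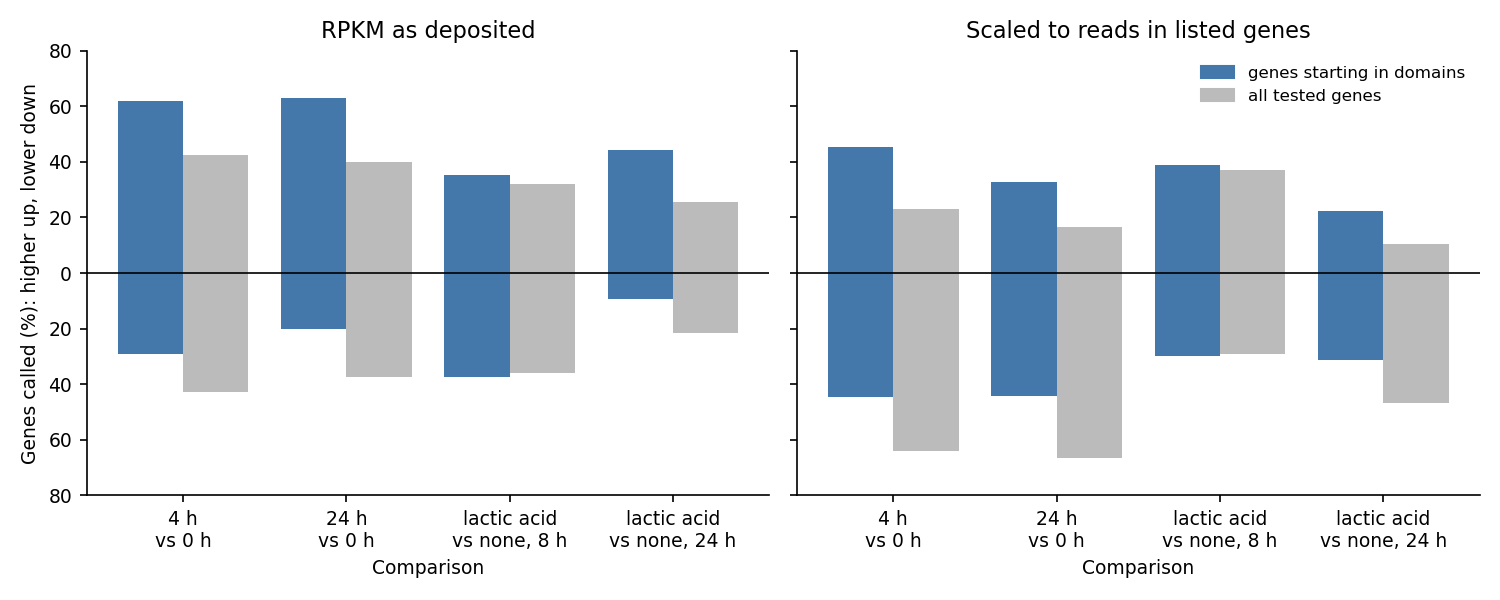
Percentage of genes called higher (above the line) and lower (below) in 4 comparisons, for the genes that start in domains (blue) and all tested genes (grey), with RPKM as deposited (left) and rescaled by reads in listed genes (right). In both panels the domain genes have a larger share of higher calls than all tested genes in the comparisons with 0 h and in that of lactic acid at 24 h.

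How much of the domain was already marked in M0 differed along with the RNA. The 14 genes in domains with under 25% M0 H3K18la cover had a median log2 fold change of 3.03 at 4 h and 0.90 at 24 h, and 13 and 12 of them were called higher and none lower. With 25% to 50% cover (51 genes) the medians were 1.61 and 0.49, with 50% to 75% (73 tested genes) 0.65 and 0.31, with 75% to 100% (111 genes) 0.20 and 0.33, and with full cover (44 genes) -0.03 and 0.21. At full cover 19 genes were called higher and 19 lower at 4 h. These values are on RPKM as deposited, and the classes were not compared after the scaling to reads in listed genes. Over all domain genes that scaling moved the median from 0.48 to -0.03 at 4 h and from 0.35 to -0.10 at 24 h. The sign of the medians near 0, and the split of calls, therefore depend on the scaling. M0 H3K18ac covered a median of 63.5% of the domains in the lowest class and 88.0% in the next, and 100% in the others. The 0 h level moved with the classes as well, with medians of 11.1, 13.7, 24.6, 20.2 and 21.1 RPKM, and its part in the result was not tested.

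**Figure D5:**
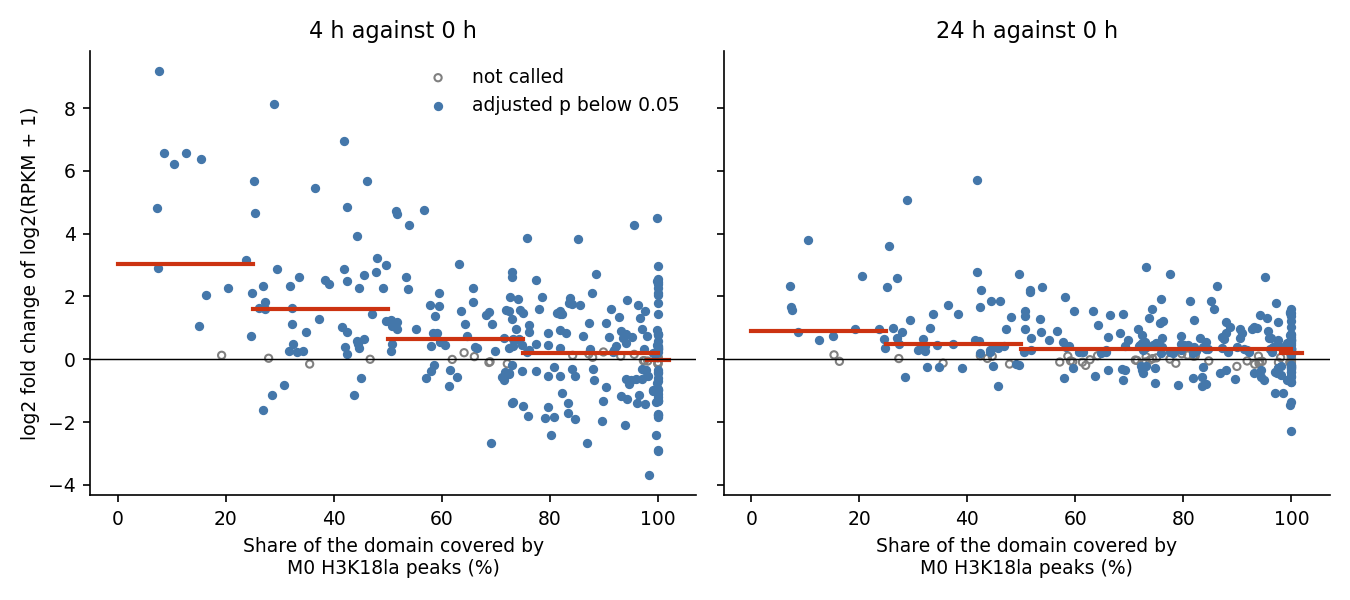
log2 fold change (of RPKM + 1) of each tested gene that starts in a domain against the percentage of that domain covered by M0 H3K18la peaks, at 4 h (left) and 24 h (right); red lines are the medians of the 5 cover classes and open points were not called. With RPKM as deposited, the median falls from 3.03 in the class under 25% to -0.03 at full cover at 4 h, and from 0.90 to 0.21 at 24 h.

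Of the 14 genes with under 25% M0 cover, 4 are in the list of interferon-stimulated genes: Gbp5, a guanylate-binding protein, Rsad2, an antiviral enzyme, Cmpk2, a mitochondrial nucleotide kinase, and Irf1, an interferon regulatory factor. Cxcl10, which encodes a chemokine for T cells, is in the list of inflammatory mediators. The others were Slamf7, Fgl2, Il18bp, Il15ra, AW112010, Jdp2, Stxbp3, Tm9sf4 and Itgb7. The cover classes were set with earlier results of these data known.

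Cxcl10 lies in the domain chr5:92347010-92354389, of which M0 peaks cover 7.6%. It read 4.806, 5.846, 5.764 and 4.321 RPKM at 0 h, 3496, 3803, 3406 and 3584 at 4 h, and 18.05, 12.61, 19.48 and 20.11 at 24 h. All libraries at 4 h were above all at 24 h, which in turn were above all at 0 h, with log2 fold changes of 9.18 (SE 0.13) at 4 h and 1.57 (SE 0.13) at 24 h.

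Gbp5 (domain chr3:142493213-142500867, 8.6% M0 cover) read 0.732 to 1.215 RPKM at 0 h, 173.1 to 195.9 at 4 h and 1.794 to 3.106 at 24 h. Rsad2 (domain chr12:26453585-26460999, 12.6% M0 cover) read 18.26 to 32.37 at 0 h, 2129 to 2754 at 4 h and 32.09 to 45.42 at 24 h. For Rsad2 the lowest library at 24 h lay just under the highest at 0 h, so these groups overlap, and the log2 fold change at 24 h was 0.61 (SE 0.15). Cmpk2, the neighbour of Rsad2 with a domain of its own (15.3% M0 cover), had 1907 RPKM ± 206 (SD, n = 4) at 4 h and 24.4 ± 4.6 at 24 h, against 22.0 ± 4.0 at 0 h (limma adjusted p = 0.37). At 24 h, when the M1 H3K18la domains were mapped, the RNA of Cxcl10, Gbp5, Rsad2 and Cmpk2 lay far below its 4 h level. Gbp5 belongs to a multigene family, and how reads that match several genes were counted is not given in the sources used here.

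Their promoter stretches are shown for comparison with those of the widest domains, with the same motifs in capitals. These 3 genes were chosen after their values were seen.
Cxcl10, chr5:92348890-92349139, minus strand: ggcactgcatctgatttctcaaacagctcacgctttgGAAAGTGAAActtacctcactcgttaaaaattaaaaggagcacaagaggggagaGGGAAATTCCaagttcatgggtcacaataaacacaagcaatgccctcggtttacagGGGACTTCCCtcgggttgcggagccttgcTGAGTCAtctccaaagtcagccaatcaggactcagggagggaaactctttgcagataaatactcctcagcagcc
Gbp5, chr3:142496684-142496933, plus strand: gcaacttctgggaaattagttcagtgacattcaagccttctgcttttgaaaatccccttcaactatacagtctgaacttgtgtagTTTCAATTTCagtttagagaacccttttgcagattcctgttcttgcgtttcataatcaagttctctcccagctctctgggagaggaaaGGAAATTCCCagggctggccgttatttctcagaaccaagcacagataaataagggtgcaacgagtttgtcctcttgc
Rsad2, chr12:26456453-26456702, minus strand: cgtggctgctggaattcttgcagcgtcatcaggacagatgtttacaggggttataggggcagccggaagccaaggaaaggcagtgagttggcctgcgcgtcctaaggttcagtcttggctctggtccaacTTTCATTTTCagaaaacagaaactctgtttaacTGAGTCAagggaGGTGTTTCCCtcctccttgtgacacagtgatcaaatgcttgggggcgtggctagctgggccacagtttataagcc

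Each of the 3 holds an IRF match, the letters read by interferon regulatory factors, together with at least 1 NF-kB match. In Cxcl10 the IRF match spans bases -213 to -204 before the start and 2 NF-kB matches span -159 to -150 and -103 to -94. None of the 6 stretches of the widest domains holds an IRF match, which 2.9% of the stretches of genes in the RNA table hold. With so rare a motif, 6 stretches are too few to show a difference. Over domains with under 50% M0 cover, 9 of 88 promoter stretches (10.2%) hold the IRF motif and 28 (31.8%) the NF-kB motif, and over domains with more cover 11 of 365 (3.0%) and 86 (23.6%). These count stretches and not genes, so the 9 may come from fewer genes.

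The lowest M0 cover of all, 3.6%, was in the domain chr11:78912071-78924307, which holds 1 end of Nos2. Nos2 read 0.15 RPKM ± 0.036 (SD, n = 4) at 0 h, 435 ± 21 at 4 h and 20.6 ± 3.7 at 24 h. Its log2 fold change over the whole 24 h was 4.21 (SE 0.13). The next lowest domains, with 4.2% to 6.5% cover, held no start of a gene in the RNA table. One of them lay 7.6 kb from Ccl5, which encodes a chemokine, and another within Lpp, where it holds the whole of Mir28a.

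At 24 h the largest rises among well expressed domain genes were those of Ccl2, a monocyte chemokine (log2 fold change 5.70, SE 0.12), and Socs3, an inhibitor of cytokine signalling (5.09, SE 0.07). Socs3 read 0.7335 to 0.9456 RPKM at 0 h and 55.81 to 68.95 at 24 h. AW112010, a noncoding transcript, rose by 3.79 (SE 0.11), Cd274, which encodes the checkpoint ligand PD-L1, by 3.60 (SE 0.11), Fos by 2.93 (SE 0.07), Fcgr1, the high-affinity IgG receptor, by 2.78 (SE 0.07), Gadd45g, a stress gene, by 2.72 (SE 0.13) and Cebpb by 2.71 (SE 0.20). All of these passed the limma test at 4 h as well.

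With RPKM as deposited, 59 domain genes were called lower at 24 h and 185 higher, and scaled to reads in listed genes the order turns (130 and 97). The falls below are on the deposited scale. Stab1, a scavenger receptor of tissue-resident macrophages, fell by 2.28 on the log2 scale (SE 0.09), from 150.1 to 190.9 RPKM at 0 h to 29.14 to 38.61 at 24 h, and M0 peaks cover 100% of its domain. Maf, a transcription factor of resident macrophages, fell by 1.36 (SE 0.10), Zfp36l2, an mRNA decay factor, by 1.07 (SE 0.10) and Naa50, an N-terminal acetyltransferase, by 1.06 (SE 0.08). Lacc1, Sh2b3, Vipas39 and Wdfy2 fell by 0.86 to 0.74. M0 cover of the domains was 99.9% for Maf, 98.4% for Zfp36l2, 97.0% for Naa50, 100% for Wdfy2, 83.4% for Sh2b3, 74.8% for Vipas39 and 45.6% for Lacc1.

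The largest falls at 4 h were deeper than the largest at 24 h and, apart from Zfp36l2, were in other genes. Of the genes named above, Zfp36l2 and Sh2b3 (log2 fold change -1.73) were lower at 4 h than at 24 h. Stab1 (-1.11), Maf (-0.75), Vipas39 (-0.36) and Naa50 (-0.32) had fallen less at 4 h, and Wdfy2 was not called. Lacc1 was higher at 4 h than at 0 h (2.69, SE 0.06). Zfp36l2 read 24.82 to 30.73 RPKM at 0 h and 1.048 to 1.444 at 4 h, a fall by 3.69 on the log2 scale (SE 0.10). Inpp5d, which encodes the lipid phosphatase SHIP1, fell by 2.93, Slc43a2, an amino acid transporter, by 2.89, Cebpa, a myeloid lineage factor, by 2.68 and Tmem104 by 2.43. By 24 h Inpp5d, Slc43a2 and Cebpa had differences of -0.72, -0.33 and -0.36 and remained below 0 h, while Tmem104 stood at -0.10 (limma adjusted p = 0.31).

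The gene lists give the roles of domain genes. Their counts stand beside those of all tested genes, of which 42.5% were called higher and 42.7% lower at 4 h and 39.9% and 37.3% at 24 h, and beside the 2.66% of all listed genes that start in a domain. The median log2 fold change at 4 h and 24 h was 0.0 and 0.02 over all tested genes as deposited, and -0.44 and -0.38 scaled to reads in listed genes.

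Macrophage lineage transcription factors started in a domain for 7 of 24 listed genes (Cebpa, Cebpb, Irf8, Maf, Zeb2, Klf6 and Id2), and at 24 h 4 were called higher and 3 lower. Their median at 24 h was 0.28, and -0.19 after the scaling, under which Klf6 turns sign (-0.19). Irf8, a factor of the interferon response, went from 21.3 RPKM ± 1.2 (SD, n = 4) at 0 h to 42.1 ± 2.2 at 24 h. Id2, an inhibitor of helix-loop-helix factors, went from 27.6 ± 0.7 to 89.2 ± 31. Zeb2, a repressor, fell from 8.49 ± 0.64 to 6.16 ± 1.4.

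Lysosome and cathepsin genes had 9 of 25 in domains, the largest share of the 17 lists (36.0%). Of the 9, 7 were called lower and 1 higher at 4 h, and 4 higher and 2 lower at 24 h, the share higher at 24 h being near that of all tested genes. Their medians were -0.59 at 4 h and -0.04 at 24 h, and -1.12 and -0.52 after the scaling, with 8 lower and 0 higher at 4 h and 3 higher and 5 lower at 24 h. The gene called higher at 4 h was Npc2, whose sign turns under the scaling (-0.03). Psap, which encodes the precursor of the saposins, went from 3427 RPKM ± 402 (SD, n = 4) at 0 h to 1315 ± 30.8 at 4 h and 5084 ± 827 at 24 h. Npc2, a cholesterol carrier of the lysosome, went from 373 ± 10 to 1080 ± 143 at 24 h. Grn, the growth factor progranulin, fell from 870 ± 52 to 692 ± 140.

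Interferon-stimulated genes had 9 of 32 in domains, all 9 called higher at 4 h and 7 at 24 h, with medians of 5.66 and 0.86. After the scaling, 9 were higher at 4 h, and 5 were higher and 1 lower at 24 h. Isg15, a ubiquitin-like modifier, went from 67.6 RPKM ± 8.8 (SD, n = 4) at 0 h to 1948 ± 136 at 4 h and 318 ± 62 at 24 h. Irgm1, an immunity-related GTPase whose domain has the highest fold enrichment of all (25.08), went from 20.9 ± 2.2 to 148 ± 4.8 at 4 h, and stood at 18.7 ± 1.5 at 24 h (limma adjusted p = 0.069). NF-kB subunits and feedback genes had 5 of 20 (Nfkbia, Nfkbid, Tnfaip3, Traf1 and Zc3h12a), all called higher at 4 h and at 24 h, with medians of 4.62 and 1.86. After the scaling 5 and 4 were. Nfkbia, the inhibitor that NF-kB itself induces, went from 35.0 ± 1.3 to 883 ± 24 at 4 h and 165 ± 16 at 24 h.

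Immediate early and MAP kinase feedback genes had 6 of 23, with 5 higher and 1 lower at 4 h and 6 higher at 24 h (medians 2.70 and 1.38). After the scaling the counts were 5 and 1, and 5 and 0. The gene lower at 4 h was Dusp6, a phosphatase of ERK, which went from 36.7 RPKM ± 6.2 (SD, n = 4) to 14.2 ± 0.43 and then to 62.5 ± 18 at 24 h. Actin cytoskeleton genes had 6 of 30, all higher at 4 h, and 4 higher and 2 lower at 24 h (medians 1.13 and 0.46). The scaling gave 4 higher with 2 lower (4 h) and 2 higher with 2 lower (24 h, median -0.02). Tmsb4x, which encodes the actin-binding peptide thymosin beta 4, went from 2478 ± 121 to 5790 ± 1226 at 24 h. Of the 6, Capg and Vim turn sign at 4 h under the scaling to reads in listed genes (-0.13 and -0.23), and Vim also at 24 h (-0.08).

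Glycolysis, glucose and lactate genes had 3 of 24 in domains: Hk3, a hexokinase of myeloid cells, Pfkfb3, which makes the activator of phosphofructokinase, and Pkm, pyruvate kinase. All 3 were called higher at 24 h (median 0.57), and 1 after the scaling (median 0.09). Pfkfb3 went from 2.86 RPKM ± 0.27 (SD, n = 4) at 0 h to 73.7 ± 5.2 at 4 h and 17.9 ± 1.9 at 24 h, and Pkm from 1101 ± 75.6 at 0 h to 1575 ± 91.1 at 24 h. Hk3 read 92.03 to 96.22 at 0 h and 134.7 to 146.8 at 24 h. Its domain had one of the 5 highest fold enrichments (20.43), with those at Neat1 and Frmd8 (22.85), Irf2, an interferon regulatory factor (20.66), and C3ar1, the receptor for complement C3a (20.39).

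The remaining lists had smaller shares as counted here. Csf1r, Itgb2, Tyrobp, Ctsb and Msr1, of the surface and identity list, have 1 end in a domain and no listed start, and are not counted. Macrophage surface and identity genes had 4 of 33 (Cd68, Fcgr1, Ctsd and Lgals3), inflammatory mediators 3 of 30 (Cxcl10, Ccl2 and Nlrp3), alternative activation genes 2 of 26 (Il4ra and Stab1), cell cycle genes 2 of 28 (Cdkn1a and E2f2) and histone acyl writers, erasers and readers 1 of 26 (Brd2, a reader of acetylated histones). Brd2 went from 18.2 RPKM ± 0.7 (SD, n = 4) at 0 h to 41.9 ± 1.7 at 4 h and 29.8 ± 4.8 at 24 h. Il4ra, the receptor for interleukin 4, rose in M1 cells, from 20.4 ± 0.82 to 57.9 ± 5.4 at 24 h. The lists were chosen with earlier results of these data known, and their counts are descriptions.

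The last question was how lactic acid, added during stimulation, changed the RNA of domain genes. At 8 h, 4 h after its addition, 103 of 293 domain genes (35.2%) were called higher than in cells without it and 110 (37.5%) lower, against 32.1% and 36.0% of all tested genes, with medians of -0.046 and -0.024. These shares are near those of all tested genes. Past 2-fold, 4 domain genes were higher and 1 lower (0.443% and 0.121% of all tested genes). Where the mean log2 level was 3 or more, 34.4% of domain genes and 26.2% of all genes were called higher, and 37.7% and 45.9% lower.

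The well expressed domain genes with the largest rises at 8 h were Lrp1 (log2 fold change 1.13, SE 0.14), Rnf213 (1.05, SE 0.16), Zmiz1 (1.04, SE 0.13), Cic (0.93, SE 0.11) and Ahnak (0.88, SE 0.10). Rnf213 encodes a ubiquitin ligase, Zmiz1 a transcriptional coactivator, Cic a repressor and Ahnak a very large scaffold protein. The largest falls were those of Gadd45g (by 0.99), Slc31a2, which encodes a copper transporter (by 0.85), Ier2, an immediate early gene (by 0.83), Dusp6 (by 0.78) and Slfn2, a Schlafen family gene (by 0.77).

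At 24 h, 130 domain genes (44.4%) were called higher with lactic acid and 27 (9.22%) lower, against 25.5% and 21.7% of all tested genes, and the medians were 0.15 and 0.01. The 46 tested genes of M1 peaks without an M0 peak had like shares (41.3% higher, 8.7% lower, median 0.155), so these are not particular to the domains. Genes of narrower shared peaks had 25.8% called higher and 19.4% lower. Past 2-fold were 7 domain genes higher and 0 lower (0.694% and 0.0402% of all tested genes). Where the mean log2 level was 3 or more, 46.3% of domain genes and 33.5% of all genes were called higher, and 9.02% and 15.1% lower. The 24 h libraries are the same as in the comparison with 0 h. Under the scaling to reads in listed genes the calls were 66 higher and 92 lower, with the median of all genes at -0.15 and that of domain genes 0.10 above it. With only the 2 groups in the fit the calls were 81 higher and 11 lower.

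Atf3 had the largest rise among well expressed domain genes (1.34, SE 0.10). It read 239.2, 161.9, 178.8 and 236.8 RPKM without and 510.2, 556.7, 510.8 and 469.7 with lactic acid at 24 h, so the groups do not overlap. Pim1, a survival kinase, rose by 1.23 (SE 0.09), Cd274 by 1.07 (SE 0.11), Id2 by 1.03 (SE 0.13) and Slamf7, a receptor of the SLAM family, by 1.01 (SE 0.09). The falls were smaller: Maf by 0.65 (SE 0.10), Mir22hg, the host of miR-22, by 0.45 (SE 0.07), Spred1, an inhibitor of MAP kinase signalling, by 0.42 (SE 0.11), Ifi47, an immunity-related GTPase, by 0.41 (SE 0.10) and Stab1 by 0.35 (SE 0.09). The call of Spred1 was lost with only the 2 groups in the fit.

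Of the gene lists, the 5 NF-kB feedback genes in domains had 3 called higher and 1 lower with lactic acid at 8 h and 5 higher at 24 h, where 25.5% of all tested genes and 44.4% of domain genes were called higher. The scaling to reads in listed genes left 3 of the 5 called higher at 24 h. The 4 surface genes were all called lower at 8 h, and 3 were higher and 0 lower at 24 h (2 and 1 after the scaling). The 9 lysosome genes had 1 higher and 4 lower at 8 h, and 3 higher and 0 lower at 24 h, a share higher that is below that of all domain genes and turns to 1 higher and 5 lower after the scaling. Tnfaip3, which encodes the ubiquitin-editing enzyme A20, went from 9.36 RPKM ± 1.1 (SD, n = 4) without to 18.6 ± 2.1 with lactic acid. Lgals3, which encodes galectin-3, went from 1939 ± 292 to 2739 ± 214. The 9 interferon-stimulated genes had 1 higher and 4 lower at 8 h, and 4 higher and 2 lower (Irf1 and Irgm1) at 24 h, or 2 and 2 after the scaling. Cd68 and Isg15, lower at 8 h as deposited, turn sign there when each library's trend with gene length is removed (0.19 and 0.01).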

How the data were processed

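Per the submitters' processing notes, Bowtie2 2.2.6, SAMtools 0.1.19, MACS2 2.2.1, HISAT2 2.1.0, featureCounts 1.5.0-p1 and edgeR were among the tools, with no role or order given; the build was mm10 (GRCm38). The threshold and control of the peak calls are not given in the sources used here. Each deposited peak list holds the authors' fold enrichment (a ratio), a score, and -log10 p-values and q-values for each peak. The deposited spike-in table gives read counts and the authors' factor, M1 spike-in reads divided by M0 spike-in reads (0.46 for H3K18la); it was not applied here, and whether the peak calls used it is not given in the sources used here. RNA values were deposited by the authors as RPKM. Of the same table, the authors' log2 fold changes were not used, their p-values and FDR served only to see which genes it lists, and their mean log2 CPM served only to estimate gene length.

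Domains were intersected with the other lists by base overlap. Gene starts came from RefSeq (GRCm38.p6): 11135 of 11184 listed genes had a position and 9025 a listed start; a gene without one counted where both ends lay in a domain. Sequences came from the same release. limma 3.58.1 (R 4.3.3) was fitted with a trend to log2(RPKM + 1) of all 32 libraries in 8 groups, for the 9942 genes that reached 1 RPKM in 4 or more libraries, with 24 residual degrees of freedom. Calls used a Benjamini-Hochberg adjusted p of 0.05. The fit was checked on simulated data. Library depth was estimated from the steps between low RPKM values, which are worth 1 read each. Named domains were the 12 widest, the 5 on each side of the width limit, and the 5 with the highest fold enrichment and the lowest M0 cover. Named genes were those in the 12 widest domains, the called genes with a mean log2 level of 3 or more and the largest changes (up to 8 in each direction at 24 h against 0 h and up to 5 in the other comparisons), up to 4 members of each list by mean RPKM, and Spi1, Csf1r, Actb, Nos2, Arg1, Il1b and Tnf; genes described for their M0 cover were chosen after their values were seen. The members and lists were chosen with earlier results of these data known. Alternatives are in the closing section. Chromosome 18 sequence was not used.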

Additional observations from a re-analysis of the deposited data

Results flagged for a closer look

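In 2 of 56 groups of 4 libraries checked (the median over domain genes and the 6 genes of the widest domains, each in 8 groups), 1 library stood apart from the other 3 by Dixon's criterion at 95%. Chance flags about 1 group in 20. At 0 h, Atf3 read 77.36 RPKM in replicate 1 and 83.58 to 84.62 in the others. At 24 h, the median over domain genes was 24.42 RPKM in replicate 2 and 26.8 to 26.81 in the others.

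The effect of lactic acid differed between 8 h and 24 h in opposite directions, with both effects called, for 5 of the named domain genes (limma interaction over all 9942 genes, Benjamini-Hochberg adjusted). The effect at 24 h minus that at 8 h was 1.93 for Atf3 (SE 0.14, adjusted p = 6.2e-12; -0.59 at 8 h and 1.34 at 24 h) and 1.60 for Gadd45g (SE 0.19, adjusted p = 5.6e-08). It was 1.14 for Slfn2 (SE 0.12, adjusted p = 1.1e-08), 1.13 for Slc31a2 (SE 0.09, adjusted p = 7.2e-11) and -1.03 for Stab1 (SE 0.13, adjusted p = 1.2e-07). Only domain genes named for their lactic acid effects at 8 h or 24 h were compared in this way, on RPKM as deposited. The 24 h effects of Gadd45g (0.60), Slfn2 (0.37) and Slc31a2 (0.29) were not checked under the scaling to reads in listed genes. That scaling moved the median 24 h effect over all tested genes from 0.01 to -0.15. Over all domain genes the difference was called more positive at 24 h for 135 and more negative for 68 of 293, with a median of 0.19, against 3253 and 2956 of 9942 and a median of 0.02 for all tested genes. The interaction was not fitted after the scaling to reads in listed genes. Under that scaling the median effect of lactic acid on domain genes was 0.04 at 8 h and -0.05 at 24 h. For all tested genes it was 0.04 and -0.15, so the direction of the difference depends on the scaling. These are medians of the effect at each time and not of its change within genes. Relative to all tested genes, the domain median at 24 h lay 0.14 above as deposited and 0.10 above after the scaling. At 8 h these values were -0.02 and 0.0.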

How the results depend on the processing

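Among counts and shares of the domains, 150 alternative values kept the reported size and 28 moved. With a limit of 10000 bp, 78 domains had a median width of 12059 bp, an M0 cover of 70.3%, a gene start in 65.38% and 33.25 RPKM at 0 h; calls were 28 higher and 11 lower at 4 h, 29 and 9 at 24 h, 13 and 21 with lactic acid at 8 h, and 21 and 6 at 24 h, from fewer genes. With 4000 bp, 945 domains had a median width of 5432 bp and 18.27 RPKM. With M0 cover of at least 50%, the median cover was 82.82% and the level 20.66 RPKM, and lactic acid at 24 h had 17 lower. With starts within 2000 bp, 58.12% of domains had one, at 20.32 RPKM. Scaled to reads in listed genes, 132 genes were lower at 4 h, 97 higher and 130 lower at 24 h. Lactic acid at 24 h then had 66 higher and 92 lower, and a fit of only the 2 groups gave 81 and 11; the cause was not tested.

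Leaving out 1 library gave 178 to 182 higher and 83 to 85 lower at 4 h, 178 to 186 and 49 to 61 at 24 h, 97 to 104 and 99 to 109 with lactic acid at 8 h, and 109 to 134 and 26 to 36 at 24 h. With a replicate block the counts were 182 and 85, 184 and 58, 103 and 110, and 129 and 26; the numbers did not pair the libraries (correlations of same-numbered deviations -0.643 to 0.511). Counting genes with 1 end in a domain and removing each library's trend with gene length were chosen after seeing the data; neither moved a count by over 1.5 times.

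Among alternative values of named genes, 2638 kept direction and call, 73 lost and 37 gained a call, and 10 turned sign. Scaled to reads in listed genes, Capg (-0.13), Hk3 (-0.13), Npc2 (-0.03), Prdx1 (-0.03) and Vim (-0.23) did so at 4 h, Klf6 (-0.19) and Vim (-0.08) at 24 h, and E2f2 with lactic acid at 24 h (-0.02). Without the length trend, Cd68 (0.19) and Isg15 (0.01) did so with lactic acid at 8 h. ChIP-seq has 1 library per mark and state, so no domain has a replicate.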
